A study of Mus musculus with 221 samples.

Results

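The enzymes described here make serine and pass its carbon into the folate pool, with 1 neighbour from sulfur metabolism. They are 8 genes of the 23244 features measured: Phgdh, Psat1, Psph, Shmt1, Shmt2, Mthfd1, Mthfd2 and Cdo1. They were chosen by name after their levels in radial glia, Eomes-positive cells and neurons of these same cells were known, so differences among those 3 kinds of cell are given as description, with no test. All 8 were above the detection limit in at least 10 cells.

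Serine is made from a glycolytic intermediate in 3 steps. Phgdh oxidises phosphoglycerate, Psat1 transfers an amino group to the product, and Psph removes the phosphate. Shmt1 in the cytosol and Shmt2 in the mitochondrion split serine into glycine and a carbon unit carried by folate, which Mthfd1 (cytosol) and Mthfd2 (mitochondrion) interconvert for the synthesis of purines and thymidylate. Cdo1 oxidises cysteine, whose carbon skeleton comes from serine through transsulfuration, on the route to taurine. In brain, Phgdh is known as an enzyme of radial glia and astrocytes rather than of neurons.

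Single cells came from C57BL/6J embryos at E18.5, from the medial neocortex, with no treatment in the labels, and were captured on a microfluidic chip. They formed 2 independent pools of 8 neocortices each, so the cells of a pool came from several animals that cannot be told apart, and the pool is the replicate (n = 2). Values are TPM, transcript shares scaled to the same total in every cell and corrected for transcript length. The lowest value of each cell, its floor, lay between 1.33 and 3.0 TPM, and a gene counted as detected when it exceeded the floor of its cell.

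Cells were assigned to classes by marker genes, and the same pools supplied every class. This gave 35 radial glia-like cells (15 in pool 1, 20 in pool 2), 32 Eomes-positive cells (17 and 15), 24 interneuron-like cells (16 and 8) and 73 and 49 excitatory neuron-like cells, with 8 left unclassed. Radial glia act as stem cells of the growing cortex, and Eomes marks intermediate progenitors on the way to excitatory neurons. Radial glia-like cells had at least 5 of 8 markers above the floor, no Eomes and no interneuron gate. Median numbers of genes above the floor were 4281 in radial glia-like, 4262.5 in Eomes-positive, 3367 in interneuron-like and 4021 in excitatory neuron-like cells. Read numbers per cell are unknown. The highest correlation between 2 cells was 0.734 (Pearson r on log2 values).

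The radial glia label holds only in part. The leading genes of the class were the markers Hes5, Vim, Mfge8, Slc1a3 and Fabp7 with Aldoc, Id3 and Hopx, yet Neurod6, a transcription factor known from excitatory neurons, reached 100 TPM in 26 of the 35 cells. Its median was 828 TPM in radial glia-like and 1783 TPM in excitatory neuron-like cells. In Eomes-positive cells it was 1458 TPM, with 30 of 32 cells at 100 TPM or more. In interneuron-like cells it was 220 TPM, with 13 of 24 cells at that level. No Neurod6 limit was set for these other classes, also where the 9 cells named next were compared with them. Levels are therefore given for all 35, and for each enzyme some values are added for the 9 cells with Neurod6 under 100 TPM (3 in pool 1, 6 in pool 2). Of those 9 cells 7 were cycling, against 12 of the 26 others. Cell names also carry a letter A or B of unstated meaning, here called the suffix. Suffix A was on 29 of 35 radial glia-like, 20 of 32 Eomes-positive, 7 of 24 interneuron-like cells, and on 63 excitatory neuron-like cells, with suffix B on 59.

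Markers of other cells moved with the radial glia-like class, and their part in the results was not tested. Endothelial markers (5 of 5) were at the floor in every cell of every class. The summed level of 4 astrocyte markers had a median of 5832 TPM in the 9 cells and 238 TPM in all 35, against 8.44 TPM in Eomes-positive, 8.26 TPM in interneuron-like and 7.78 TPM in excitatory neuron-like cells. Their sums ran from 5.92 to 7786 TPM in radial glia-like, 6.55 to 2229 TPM in Eomes-positive, 6.65 to 621 TPM in interneuron-like and 5.33 to 500.4 TPM in excitatory neuron-like cells. Aldoc was detected in all 9 cells, at a median of 5827 TPM, Gfap in 5, Gja1 in 3 and S100b in no cell of any class. The median sum of 5 oligodendrocyte precursor markers was 63.5 TPM in the 9 cells and 9.03 TPM in all 35, against 9.32, 10.2 and 9.37 TPM in the other classes in the same order. The highest sums were 2231 TPM in radial glia-like, 249.9 TPM in Eomes-positive, 127 TPM in interneuron-like and 349 TPM in excitatory neuron-like cells. For 8 stress genes of tissue dissociation, such as Fos and Jun, the median sum was 579.5 TPM in the 9 cells and 408 TPM in all 35, against 299 TPM in Eomes-positive, 24.6 TPM in interneuron-like and 154 TPM in excitatory neuron-like cells. The highest sums were 3894, 2170, 497 and 999 TPM in radial glia-like, Eomes-positive, interneuron-like and excitatory neuron-like cells.

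The upstream sequences of the 3 serine synthesis enzymes are shown because all 3 genes had their highest mean over pools in radial glia-like cells. The 250 bases before the RefSeq transcription start (GRCm38.p6) are written 5′ to 3′ on the gene's strand, with CCAAT in capitals, or ATTGG where the motif lies on the other strand. The windows are chr3:98339970-98340219 for Phgdh, chr19:15925060-15925309 for Psat1 and chr5:129787254-129787503 for Psph, and all 3 genes lie on the minus strand. Upstream refers to this RefSeq start alone: the Psph window lies mostly within the RefSeq span of the gene given with its values, and so do both of its motifs.
Phgdh: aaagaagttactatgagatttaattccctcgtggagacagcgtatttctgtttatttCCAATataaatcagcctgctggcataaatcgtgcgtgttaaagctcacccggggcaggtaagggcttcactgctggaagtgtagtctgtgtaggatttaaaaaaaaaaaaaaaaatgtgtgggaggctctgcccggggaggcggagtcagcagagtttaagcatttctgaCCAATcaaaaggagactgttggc
Psat1: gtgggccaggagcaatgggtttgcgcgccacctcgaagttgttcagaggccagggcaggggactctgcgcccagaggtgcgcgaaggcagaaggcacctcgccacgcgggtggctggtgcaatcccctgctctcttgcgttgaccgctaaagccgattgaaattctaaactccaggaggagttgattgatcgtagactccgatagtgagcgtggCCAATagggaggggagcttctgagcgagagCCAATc
Psph: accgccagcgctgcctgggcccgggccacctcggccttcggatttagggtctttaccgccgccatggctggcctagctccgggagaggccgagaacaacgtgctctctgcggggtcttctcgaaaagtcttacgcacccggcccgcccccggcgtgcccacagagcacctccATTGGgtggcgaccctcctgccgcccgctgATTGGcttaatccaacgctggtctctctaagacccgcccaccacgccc

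Counting the last base before the start as -1, CCAAT began at -193 and -23 upstream of Phgdh, at -36 and -6 upstream of Psat1 and at -78 and -48 upstream of Psph. RefSeq lists a further Psat1 start whose window had none. CCAAT on either strand occurred in 6 of 8 windows of the enzymes (6 of 7 genes with a window), against 33.8% of the 32851 windows of all genes. It occurred at least 2 times in 4 of 8 windows, against 10.1%. Mthfd2 had 3, Shmt1 and Mthfd1 had 1 each, and Shmt2 had none, the windows of Mthfd1 and Mthfd2 also lying within the RefSeq spans of these genes. Neither TGATGNAA, the core of the composite element bound by Atf4 and its partners, nor the E-box CACGTG was in any of the 8 windows, against 3.45% and 6.02% of all windows. CCAAT was chosen after the sequences had been seen, and a match is a string of letters, not a binding site.

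Phgdh (GRCm38 chr3:98313171-98339969, minus strand) catalyses the first step of the pathway. A pseudogene, Phgdh-ps1, is annotated, and how the authors split shared reads is not given in the sources used here. Phgdh was detected in 57.1% of radial glia-like cells (20 of 35, exact 95% interval 39.4 to 73.7), 13 of 32 Eomes-positive cells (40.6%, 23.7 to 59.4), 4 of 24 interneuron-like cells (16.7%, 4.74 to 37.4) and 13 of 73 and 8 of 49 excitatory neuron-like cells of pools 1 and 2 (17.2%, 10.98 to 25.1). Intervals cover counting error only. Levels ran from 1.34 TPM over a median of 48.9 TPM to 956 TPM in radial glia-like cells. In Eomes-positive cells the lowest, median and highest levels were 1.62, 2.17 and 436 TPM. They were 1.66, 2.03 and 105.2 TPM in interneuron-like cells and 1.33, 1.89 and 105.9 TPM in excitatory neuron-like cells. The radial glia-like and excitatory ranges overlapped, because every class contained cells at the floor, but no neuron of either kind exceeded 105.9 TPM. Of the detected cells, 19 of the 20 in the radial glia-like class and 12 of the 21 in the excitatory class reached 10 TPM, so more of the neuronal detections lay near the floor.

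In the 9 radial glia-like cells with little Neurod6, Phgdh was detected in 8, with a median of 291 TPM. In the 26 others it was detected in 12, with a median of 2.02 TPM. Mean log2(TPM + 1) of Phgdh was 5.71 in pool 1 and 3.90 in pool 2 for radial glia-like cells, 2.88 and 3.88 for Eomes-positive cells, 2.52 and 1.57 for interneuron-like cells and 2.203 and 1.65 for excitatory neuron-like cells. The log2 difference of radial glia-like from excitatory neuron-like cells was 2.88 ± 0.63 (limma standard error, n = 2 pools per class), and it was 5.56 ± 0.67 with the 9 cells. Here and below, ± is this limma error, whose variance is shared among all classes and moderated over genes. It can be smaller than the spread between the 2 pools. The difference from Eomes-positive cells was 2.82 in pool 1 and 0.01 in pool 2, so the 2 classes were nearly level in pool 2. With the 9 cells it was 5.0 in pool 1 and 3.22 in pool 2. Within excitatory neuron-like cells Phgdh was detected in 18 of 63 with suffix A and in 3 of 59 with suffix B, and the radial glia difference was 2.35 in suffix A cells alone.

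Psat1 (chr19:15905123-15925059, minus strand), the aminotransferase, was detected in 17 of 35 radial glia-like, 12 of 32 Eomes-positive, 2 of 24 interneuron-like and 7 of 73 and 13 of 49 excitatory neuron-like cells. Its lowest, median and highest levels were 1.34, 1.99 and 1104 TPM in radial glia-like cells, 1.56, 1.97 and 536 TPM in Eomes-positive cells, 1.66, 2.02 and 294 TPM in interneuron-like cells and 1.33, 1.88 and 244 TPM in excitatory neuron-like cells. In every class the median cell stood near the floor, so the classes differed in how many cells lay above it and how far. Among detected cells the median was 233 TPM in radial glia-like and 162 TPM in excitatory neuron-like cells. The 9 cells with little Neurod6 had Psat1 in 7, with a median of 233 TPM, and the 26 others had it in 10, among them the 2 highest radial glia-like cells, at 1104 and 1059 TPM. The log2 difference of radial glia-like from excitatory neuron-like cells was 2.90 in pool 1 and 1.14 in pool 2, with a mean of 2.02 ± 0.53, and 4.39 ± 0.85 with the 9 cells. A processed pseudogene, Gm3329, overlaps Psat1, and whether reads were assigned by strand is not given in the sources used here.

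Psph (chr5:129765558-129787443, minus strand), the phosphatase of the last step, was detected in 20 of 35 radial glia-like, 8 of 32 Eomes-positive, 4 of 24 interneuron-like and 7 of 73 and 9 of 49 excitatory neuron-like cells. The lowest, median and highest levels were 1.34, 55.01 and 733 TPM in radial glia-like cells, 1.57, 1.86 and 280 TPM in Eomes-positive cells, 1.66, 2.04 and 349 TPM in interneuron-like cells and 1.33, 1.88 and 197 TPM in excitatory neuron-like cells. In the 9 cells with little Neurod6 it was detected in 7 with a median of 219 TPM, and in the 26 others in 13 with a median of 2.15 TPM. The log2 difference of radial glia-like from Eomes-positive cells was 2.78 in pool 1 and 1.17 in pool 2, and from excitatory neuron-like cells 3.04 and 2.42. Taking the 9 cells alone, the difference from Eomes-positive cells was 3.25 and 3.86, and that from excitatory neuron-like cells 3.51 and 5.11. A Cct6a transcript overlaps Psph.

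**Figure D1:**
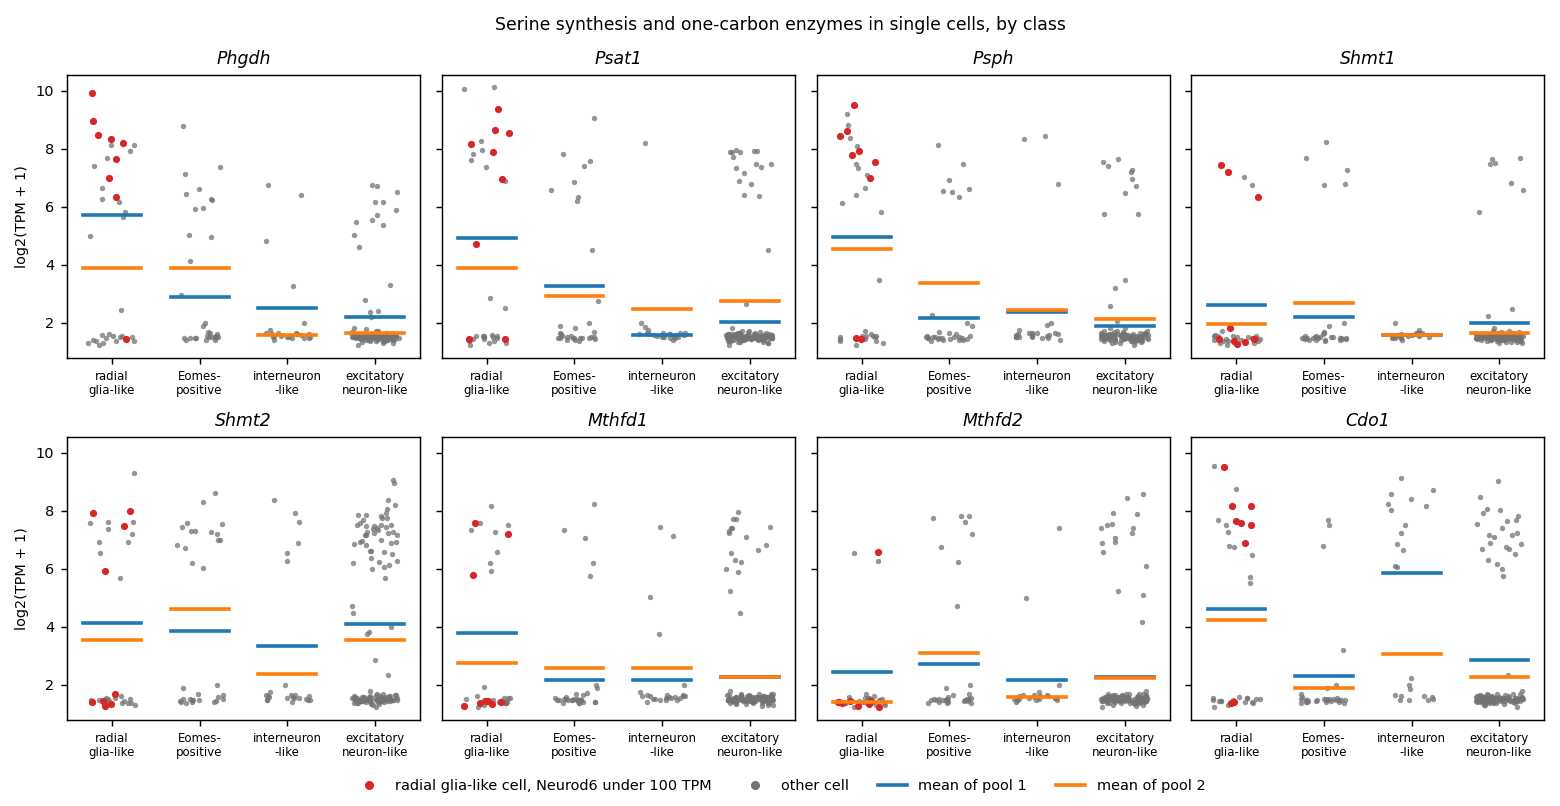
Level of each enzyme, as log2(TPM + 1), in every cell of the 4 classes; dots are cells, red for the 9 radial glia-like cells with Neurod6 under 100 TPM, and lines are the means of pool 1 (blue) and pool 2 (orange). Phgdh, Psat1 and Psph have both pool means highest in radial glia-like cells, Shmt2 is spread over all classes, and Cdo1 is high in radial glia-like and interneuron-like cells.

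All 3 serine synthesis enzymes were detected together in 12 of 35 radial glia-like cells (34.3%), 1 of 32 Eomes-positive cells, 0 of 24 interneuron-like cells and 0 excitatory neuron-like cells. Within the radial glia-like class the complete set was found in 6 of the 9 cells with little Neurod6 and in 6 of the 26 others. It was found in 11 of the 15 cells with 7 or 8 radial glia markers and in 1 of the 20 cells with 5 or 6. The cells with 7 or 8 markers also had more genes above the floor (median 4792 against 4170.5) and were more often cycling (11 of 15 against 8 of 20), and the part of either in these counts was not tested. None of the 3 was detected in 8 of 35 radial glia-like, 11 of 32 Eomes-positive and 16 of 24 interneuron-like cells and in 58.2% of excitatory neuron-like cells. Exactly 1 was detected in 36.9% of excitatory neuron-like cells, while the complete set was not seen. Phgdh, Psat1 and Psph singly were detected in 17.2%, 16.4% and 13.1% of them. With shares this low a complete set would be rare also for unlinked genes, and no expected count was computed for any class. Pearson correlations over the 35 radial glia-like cells, given as description, were 0.67 for Phgdh with Psph, 0.53 for Phgdh with Psat1 and 0.51 for Psat1 with Psph. In the same order of pairs they were 0.55, 0.47 and -0.16 in the 15 cells with 7 or 8 markers. They were 0.39, 0.006 and 0.27 in the 20 cells with 5 or 6, and 0.36, 0.02 and -0.34 in Eomes-positive cells. The points share library preparation and the number of genes detected per cell. Over the 35 cells, Phgdh with Shmt2 gave 0.07.

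**Figure D2:**
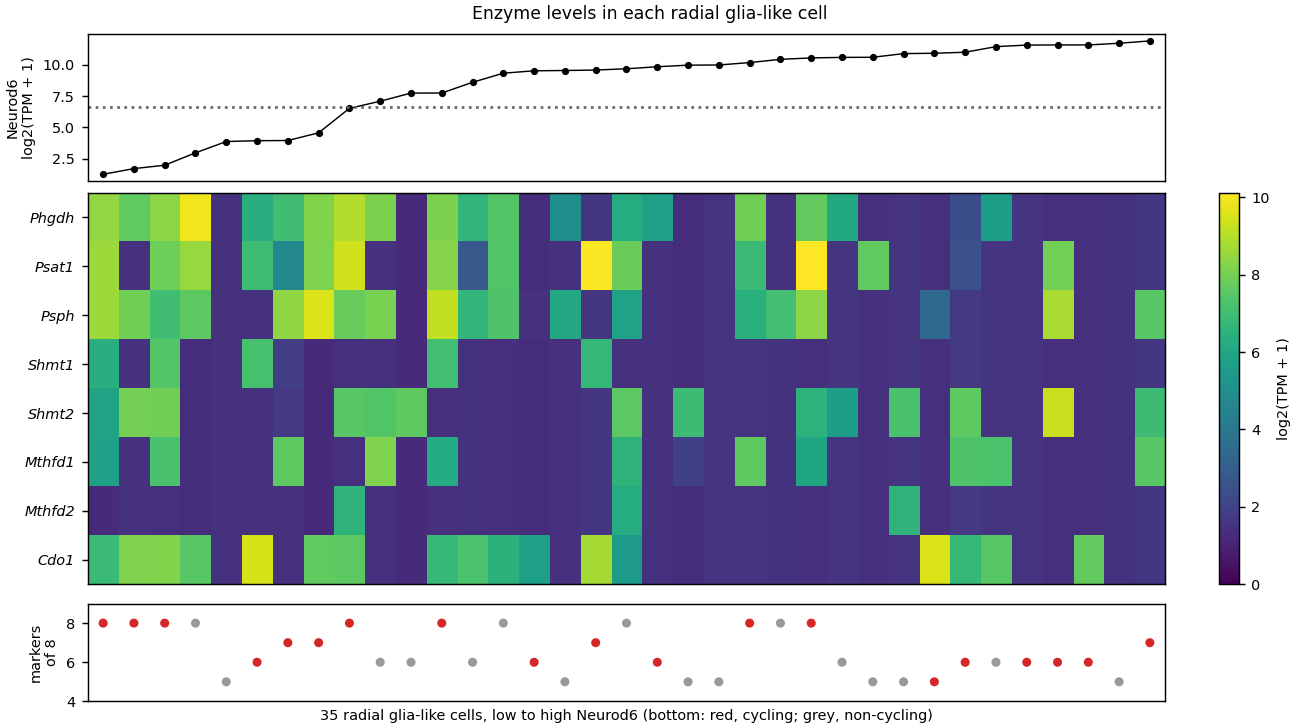
The 35 radial glia-like cells from low to high Neurod6: Neurod6 as log2(TPM + 1) with the 100 TPM limit dotted (top), the 8 enzymes as log2(TPM + 1) (middle), and the number of 8 radial glia markers above the floor, red for cycling cells (bottom). Detected in the 9 cells at the left and in the 26 others were Phgdh (8 and 12), Psat1 (7 and 10), Psph (7 and 13) and Cdo1 (7 and 10). Shmt1 was detected in 4 and 2 of these cells, and Shmt2 in 5 and 10. Cells with Shmt2 or Mthfd1 are scattered along the row.

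Of the serine hydroxymethyltransferases, Shmt2 was found in similar shares of radial glia-like, Eomes-positive and excitatory neuron-like cells, and Shmt1 was rare in every class. Shmt2 (chr10:127517123-127522444, minus strand), the mitochondrial form, was detected in 15 of 35 radial glia-like (42.9%), 15 of 32 Eomes-positive (46.9%), 6 of 24 interneuron-like (25%) and 38 of 73 and 17 of 49 excitatory neuron-like cells (45.1%). Its mean level was 76.4, 78.3, 45.5 and 67.6 TPM in the same order of classes. The log2 difference of radial glia-like from excitatory neuron-like cells was 0.01 ± 0.56. With the 9 cells it was 1.53 in pool 1 and -0.27 in pool 2, so the pools differed in direction. Of the 8 enzymes, Shmt2 was detected in the largest share of excitatory neuron-like cells. Shmt1 (chr11:60788897-60811265, minus strand), the cytosolic form, was sparse: 6 of 35, 5 of 32, 0 of 24, and 7 of 73 and 3 of 49 cells in the same order. With 0 of 24 interneuron-like cells, a share of up to 14.2% lies within the exact 95% interval. Of the 6 radial glia-like cells with Shmt1, 4 were among the 9 with little Neurod6, and all 6 also had Psat1. From excitatory neuron-like cells, Shmt1 in radial glia-like cells differed by 0.47 ± 0.32 with all 35 and by 1.99 ± 0.82 with the 9, both on the log2 scale. The Shmt1 difference of the 9 cells was 3.35 in pool 1 and 0.63 in pool 2. Ndufa4l2 overlaps Shmt2, and Smcr8 and a small nucleolar RNA gene overlap Shmt1.

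The folate enzymes were also sparse. Mthfd1 (chr12:76254406-76319820, plus strand), which carries 3 activities of the cytosolic pathway in 1 protein, was detected in 12 of 35 radial glia-like, 6 of 32 Eomes-positive, 4 of 24 interneuron-like and 11 of 73 and 7 of 49 excitatory neuron-like cells. Its log2 difference of radial glia-like from excitatory neuron-like cells was 1.49 in pool 1 and 0.48 in pool 2, and with the 9 cells the mean was 0.96 ± 0.45. Unlike Phgdh, Mthfd1 was not more often detected in those 9 cells (3 of 9) than in the 26 others (9 of 26). Mthfd2 (chr6:83305704-83326011, minus strand), the mitochondrial enzyme, had its lowest shares of cells in radial glia-like and interneuron-like cells. It was detected in 3 of 35 radial glia-like, 8 of 32 Eomes-positive, 2 of 24 interneuron-like and 11 of 73 and 7 of 49 excitatory neuron-like cells. All 3 radial glia-like cells with Mthfd2 came from pool 1, and 0 of 20 in pool 2 had it. Mean Mthfd2 was 9.06 TPM in radial glia-like, 39.4 TPM in Eomes-positive, 10.1 TPM in interneuron-like and 23.7 TPM in excitatory neuron-like cells. Against excitatory neuron-like cells, radial glia-like cells differed by 0.16 in pool 1 and -0.81 in pool 2. Of the 9 cells with little Neurod6, 1 had Mthfd2, and their log2 differences were 0.86 and -0.89. Noncoding genes or pseudogenes overlap Mthfd1, and a provisional gene overlaps Mthfd2.

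Cdo1 (chr18:46713193-46728502, minus strand), the cysteine dioxygenase, had a pattern of its own. It was detected in 17 of 35 radial glia-like (48.6%), 7 of 32 Eomes-positive (21.9%), 15 of 24 interneuron-like (62.5%) and 17 of 73 and 9 of 49 excitatory neuron-like cells (21.3%). Of the 7 Eomes-positive cells, only 3 reached 10 TPM. The lowest, median and highest levels were 1.34, 1.99 and 742 TPM in radial glia-like cells, 1.57, 1.79 and 205 TPM in Eomes-positive cells, 1.76, 67.1 and 562 TPM in interneuron-like cells and 1.33, 1.89 and 518 TPM in excitatory neuron-like cells. In the 9 cells with little Neurod6 it was detected in 7, with a median of 190 TPM, and in the 26 others in 10. Against Eomes-positive cells, radial glia-like cells differed on the log2 scale by nearly the same in both pools, 2.29 in pool 1 and 2.34 in pool 2. From excitatory neuron-like cells it was 1.73 and 1.94, and 4.39 ± 1.10 with the 9 cells.

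Ordered by the mean over pools, radial glia-like cells came first for Phgdh, Psat1, Psph and Mthfd1, Eomes-positive cells for Shmt1, Shmt2 and Mthfd2, and interneuron-like cells for Cdo1. The pool values of the first and the next class did not overlap for Phgdh, Psat1, Psph, Mthfd1 and Mthfd2, and did overlap for Shmt1, Shmt2 and Cdo1. How often such values overlap over all genes was not counted, so this sets the enzymes apart from no other genes. For Phgdh the gap was 3.90 in the lower radial glia-like pool against 3.88 in the higher Eomes-positive pool. When the 9 cells stood in place of the 35, radial glia-like cells came first also for Shmt1, Shmt2 and Cdo1, while Eomes-positive cells stayed first for Mthfd2. Their pool means were 5.33 and 2.27 for Shmt1, 5.63 and 3.27 for Shmt2 and 8.42 and 5.50 for Cdo1. For Shmt1 and Shmt2 this order held in pool 1, where they differed from Eomes-positive cells by 3.13 and 1.78, and was turned round in pool 2, at -0.42 and -1.35. The median number of the 8 enzymes detected per cell was 3 in radial glia-like, 2 in Eomes-positive, 1 in interneuron-like and 1 in excitatory neuron-like cells, and 4 in the 9 cells with little Neurod6.

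Interneurons and excitatory neurons were compared with a test, since the choice of enzymes did not rest on that contrast. Cdo1 had the largest difference of the 8 enzymes, mostly in pool 1, and none of the 8 passed the test. With limma on the pool means and Benjamini-Hochberg adjustment over 10714 genes, 65 genes were called (0.607%), where a call needs a log2 difference of 1 or more and an adjusted p under 0.05, and 0 of the 8 enzymes were among them. Mean log2(TPM + 1) of Cdo1 was 5.85 in pool 1 and 3.08 in pool 2 for interneuron-like cells, against 2.87 and 2.28 for excitatory neuron-like cells. The difference was 1.89 ± 0.73 (limma adjusted p = 0.449), with 13 of 16 interneuron-like cells detected in pool 1 and 2 of 8 in pool 2. Without the interneuron-like profile of pool 2 it was 3.27. Without that of pool 1 it was 0.50, and in suffix A cells alone 0.65. The other enzymes had log2 differences from -0.97 for Shmt2 to 0.38 for Psph. Their adjusted p-values were 0.660 or more, and 4 of the 8 enzymes lay above 0, with a median of -0.07 as over all genes. Interneuron-like cells had fewer genes above the floor (3367 against 4021), whose part in these differences was not tested.

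Cycling progenitors were then set against non-cycling ones, to see whether the enzymes differ within the progenitors. A larger share of the cycling ones was radial glia-like. The contrast is therefore not independent of the class levels known when the enzymes were chosen. All 8 enzymes had positive log2 differences, yet none was called. Phgdh, Psat1 and Cdo1 had the largest ones, above 2 on the log2 scale. The 29 cycling cells (7 in pool 1, 22 in pool 2) had at least 3 of 8 mitotic markers, and the 38 others (25 and 13) did not. Psat1 was detected in 18 of 29 cycling and 11 of 38 non-cycling cells. In cycling cells its mean log2(TPM + 1) was 7.59 in pool 1 and 4.01 in pool 2, against 3.05 and 2.54 in non-cycling cells. The difference was 3.01 ± 0.91 (limma adjusted p = 0.216). Phgdh was detected in 19 of 29 cycling and 14 of 38 non-cycling cells, with pool means of 6.77 and 4.35 against 3.49 and 3.11. Its difference was 2.26 ± 0.72 (limma adjusted p = 0.247).

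Cdo1 differed by 2.35 ± 0.84 (limma adjusted p = 0.291), Psph by 1.37 ± 0.49 (0.293) and Mthfd1 by 1.21 ± 0.46 (0.325), each with both pools above 0. Shmt1 differed by 2.93 in pool 1 and -0.29 in pool 2, Shmt2 by 0.12 and 1.29, and Mthfd2 by 0.08 and 0.40. The median over the 8 enzymes was 1.35, against -0.09 over all genes. The count over all 10714 genes was 0 (0%), with 1285 genes at an unadjusted limma p below 0.05. With a level of 10 TPM in place of the floor in the marker gates, 183 genes were called (1.71%). Phgdh (2.5 ± 0.54, limma adjusted p = 0.0456) and Psat1 (3.41 ± 0.70, limma adjusted p = 0.0355) were then among them, so the call on these 2 enzymes depended on how the cells were gated. Shmt2 was at -0.42 under that gate, and the other 7 enzymes above 0. With the Neurod6-rich radial glia-like cells left out, Phgdh was called as well (2.93, limma adjusted p = 0.0442). The cycling profiles then held 5 and 12 cells and the non-cycling ones 15 and 9. Of the 9 radial glia-like cells kept, 7 were cycling, so the mix of classes differed between the groups there too. That class contrast was known when the enzymes were chosen, so this call is not an independent test. Other genes were also called in that fit, and the last section gives their count. Leaving out the cycling profile of pool 2, with 22 of the 29 cycling cells, left a single cycling profile of 7 cells. The differences were then 3.47 for Phgdh, 4.80 for Psat1 and 2.58 for Shmt1. Without the cycling profile of pool 1, Psat1 was at 1.22.

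The number of genes above the floor and the mix of classes moved with cycling, and their part in the differences was not tested. In pool 1 the median number of genes above the floor was 5139 in cycling and 4249 in non-cycling progenitors, and in pool 2 it was 4230 and 4281. Of the classes, 65.5% of cycling and 42.1% of non-cycling progenitors were radial glia-like. Among radial glia-like cells alone the differences were 2.01 ± 1.07 for Phgdh, 3.13 ± 0.99 for Psat1, 2.02 ± 0.67 for Psph and 2.87 ± 0.97 for Cdo1. Their limma adjusted p-values were 0.456, 0.260, 0.264 and 0.267, so none was called. Mthfd2 differed by 0.03 there.

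**Figure D3:**
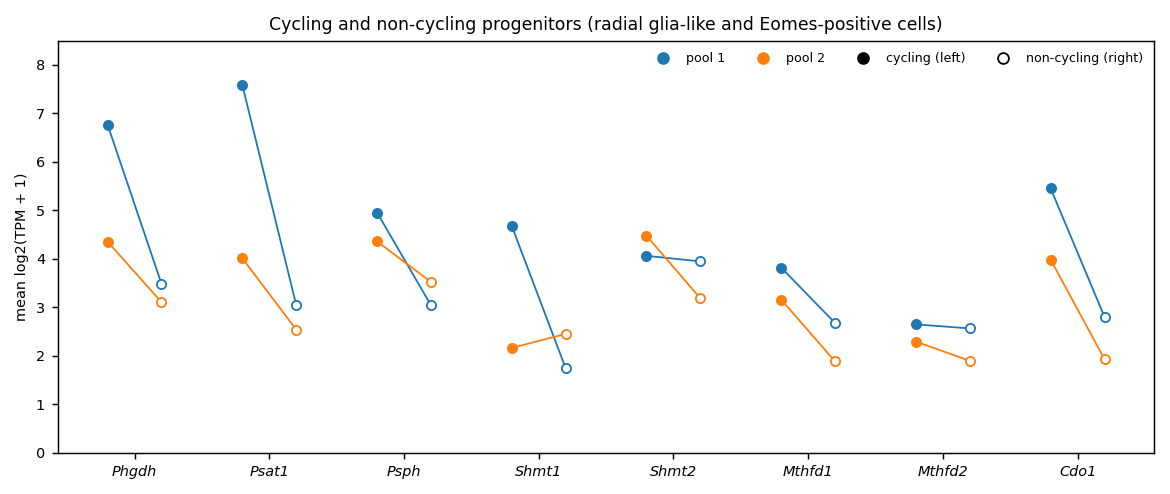
Mean log2(TPM + 1) of each enzyme in cycling (filled, left) and non-cycling progenitors (open, right), joined within pool 1 (blue) and pool 2 (orange). Psat1 and Phgdh lie higher in cycling cells of both pools (Psat1 7.59 and 4.01 against 3.05 and 2.54), and Shmt1 is split between the pools.

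Beyond the 8 enzymes, 59 genes of neighbouring pathways were in the table, in 7 lists, and 46 of them could be tested. In the comparison of all 35 radial glia-like with excitatory neuron-like cells 0 of 46 were called. Of all genes, 0 were called there (0%), with 845 at an unadjusted limma p below 0.05. None of the 46 was called against Eomes-positive cells (3 genes called in all, 0.028%, and 0 with the pool as a block), between Eomes-positive and excitatory neuron-like cells (0 called, 0%, with 918 genes at an unadjusted limma p below 0.05), between the kinds of neuron, or with cycling. With 2 pools per class these tests have few residual degrees of freedom (4).

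With the 9 cells in place of the 35, 377 genes were called against excitatory neuron-like cells (3.52%). Of the 46 pathway genes 1 was called, a share no higher than that over all genes. That gene was Cbs, cystathionine synthase, which joins serine to homocysteine in the first step of transsulfuration. Cbs was detected in 14 of 35 radial glia-like cells and in 7 of the 9, against 5 of 32 Eomes-positive, 0 of 24 interneuron-like and 2 excitatory neuron-like cells. Its mean was 239.9 TPM in the 9 cells and 97.8 TPM in all 35, against 21.6 TPM in Eomes-positive and 4.22 TPM in excitatory neuron-like cells, so nearly all neurons stood at the floor. The log2 difference of the 9 cells from excitatory neuron-like cells was 5.27 ± 0.65 (limma adjusted p = 0.00592), with 6.05 in pool 1 and 4.49 in pool 2. From Eomes-positive cells it was 4.49 ± 0.65 (limma adjusted p = 0.0267), in a comparison with 65 genes called (0.607%). With all 35 cells it was 2.42 ± 0.37 against excitatory neuron-like cells and was not called (limma adjusted p = 0.0755). Both comparisons share the 9 cells. Aldoc, Olig1, Olig2, Fos and Jun of the other marker lists were called higher in the same 9 cells against excitatory neuron-like cells.

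The medians of the lists lay between -0.38 and 0.32 in the comparison with all 35 cells. With all 35 radial glia-like cells set against excitatory neuron-like ones, the median log2 difference was 0.32 for glycine cleavage and serine breakdown (4 tested), 0.23 for the folate cycle (10), -0.18 for folate and serine transport (5), -0.23 for the methionine cycle (5), 0.28 for cysteine, taurine and glutathione (12), 0.11 for serine into lipids (5) and -0.38 for Atf4 and its targets (5). The median over all genes was -0.02. For the 9 cells the medians were 0.48, 1.11, -0.24, -0.18, 0.04, 0.29 and 0.04 in the same order of lists, against -0.14 over all genes, so that of the folate cycle stood highest. Chosen after its values were seen, Atf4, the transcription factor known to drive the serine enzymes under amino acid shortage, had mean levels of 331 TPM in radial glia-like, 381 TPM in Eomes-positive, 418 TPM in interneuron-like and 369 TPM in excitatory neuron-like cells. Its target Asns, asparagine synthetase, averaged 36.3, 4.65, 44.8 and 52.03 TPM in the same order. Both means were lower in radial glia-like cells than in either kind of neuron, and that of Asns was higher than in Eomes-positive cells. Neither gene was called, and the part of Atf4 in the levels of the serine enzymes was not tested. In the 9 cells Atf4 averaged 346 TPM and Asns 29.2 TPM. Gldc, the decarboxylase of glycine cleavage, was detected in 3, 2, 0 and 2 cells of these classes and could not be tested.

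**Figure D4:**
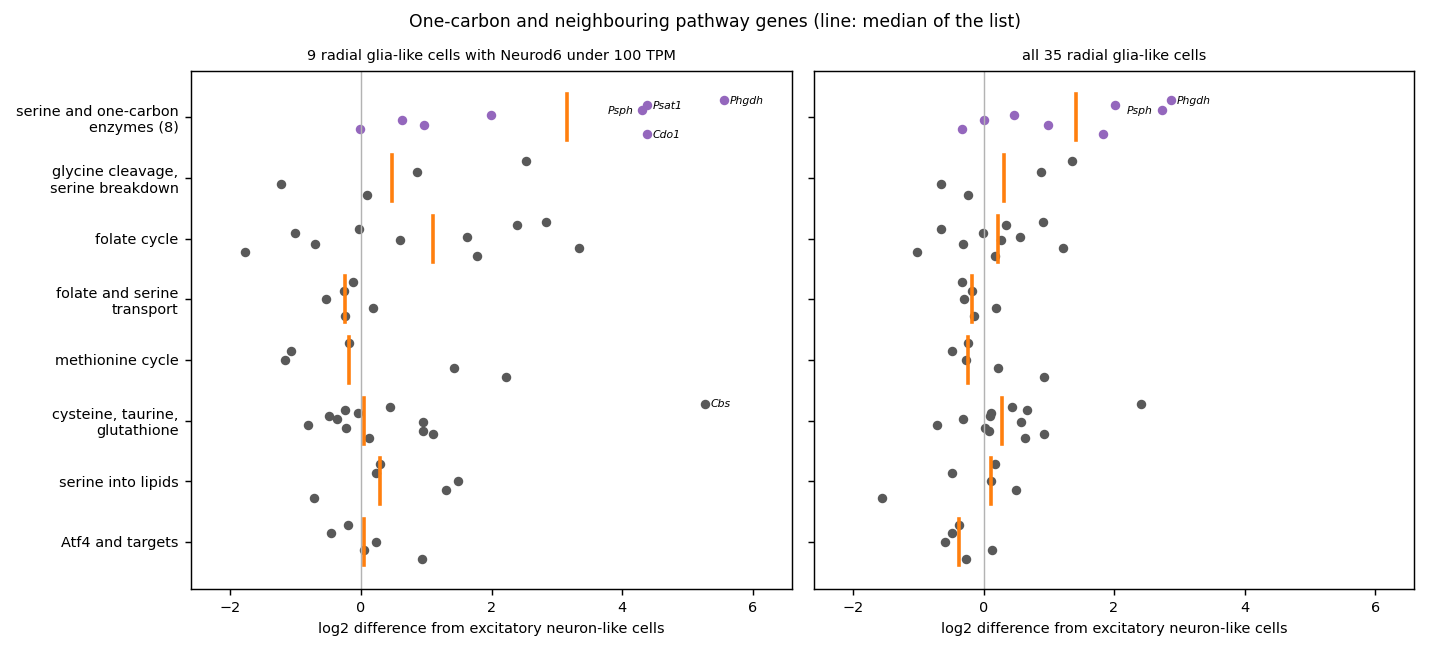
Log2 difference from excitatory neuron-like cells for the 8 enzymes and 7 neighbouring gene lists, for the 9 radial glia-like cells with Neurod6 under 100 TPM (left) and all 35 (right); dots are genes and orange lines are list medians. With the 9 cells Phgdh lies at 5.56, Cbs at 5.27, Psat1 and Cdo1 at 4.39 and Psph at 4.31, above every other gene of the plot.

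For cycling against non-cycling progenitors the folate cycle had a median log2 difference of 0.47, with 7 of 10 genes above 0 and 0 called. The genes named next were chosen after their values were seen. Ggh, which trims folate polyglutamates, had 2.73 ± 0.77 (limma adjusted p = 0.190). Tyms, thymidylate synthase, had 1.85 ± 0.57 (limma adjusted p = 0.228). Cbs had 2.51 ± 0.77 (limma adjusted p = 0.223).

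Last, all other genes were ranked by their Pearson correlation with Phgdh and with Psat1 over the 221 cells, among 9310 genes detected in at least 20 cells. Nearest to Phgdh were Cbs (r = 0.63), Notch1 (0.62), Zfp36l1 (0.62), Gpx8 (0.59) and Id1 (0.58). Nearest to Psat1 were Prc1 (0.56), Kif11 (0.53), Cdk1 (0.51), Rdm1 (0.50) and Top2a (0.49). Cdk1 and Top2a belong to the cycling gate. These correlations are descriptions over cells that share library preparation, detection and class. Cbs, detected in 22 cells, met the limit of 20 only through radial glia-like cells.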

How the data were processed

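The members and gene lists were chosen with earlier results of these data known. Single-cell cDNA from a Fluidigm C1 chip (SMARTer v4) was made into Nextera XT libraries, per the labels' protocols. The authors deposited TPM values. TopHat2 2.0.14, Bowtie2 2.2.6, Cufflinks 2.2.1 and mm10 are named in the submitters' processing notes. The 2 deposited tables held identical values, and 1 was used. Every cell sums to 1e+06 TPM and no value is 0. Depth is unknown, which limits how firmly an undetected gene can be read.

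Cells were classed by marker genes above the floor: radial glia at least 5 of 8 (Slc1a3, Fabp7, Hes1, Hes5, Sox2, Sox9, Vim, Mfge8), Eomes itself, interneuron at least 3 of 8, excitatory neuron at least 3 of 8, cycling at least 3 of 8. Cells with the interneuron gate and also the radial glia gate or Eomes stayed unclassed, as did cells with at least 3 of 5 endothelial, microglial or mural and meningeal markers; no doublet caller was run. Mean log2(TPM + 1) per class and pool, from at least 3 cells, entered limma 3.58.1 (R 4.3.3; lmFit, eBayes with trend and robust variances), two-sided, with Benjamini-Hochberg adjustment. Fold changes are on the log2(TPM + 1) scale, which understates those of low genes. Tested genes exceeded the floor in 10 cells or more, and gate genes and spike-ins left out. The fit was tested on simulated data. All 8 members were named with their values. Of the lists, called genes were named, up to the 10 with the largest difference, and the rest counted; the 5 genes most correlated with Phgdh and Psat1 were named. Exact intervals are Clopper-Pearson, at 95%. Pools pair the classes, since all classes of a pool come from the same animals; deviations from class means correlated between -0.01 and 0.06. Alternatives covered gates, pseudocount, floor, averaging, filter, scaling, suffix, pool block and left-out pools. Gene positions are from RefSeq, and strands and overlapping genes from GENCODE M21, both on GRCm38, the assembly that mm10 names. Python 3.11.15 was used. The result of 1 gene is not reported here.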

Additional observations from a re-analysis of the deposited data

Results flagged for a closer look

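In the 8 unclassed cells, outside every comparison, 3 of the enzymes were detected in more than 3 of 8 cells (37.5%). That limit was set for flagging only and does not test an excess. Psat1 was detected in 7 of the 8, Phgdh in 4 and Cdo1 in 4. Phgdh was no more frequent here than in radial glia-like cells, nor Cdo1 than in interneuron-like cells. Psat1 ran from 1.86 over a median of 285 to 784 TPM, Phgdh from 1.72 over 14.9 to 222 TPM and Cdo1 from 1.72 over 27.4 to 379 TPM. Of these cells 7 came from pool 2. The median cell had 5 of 8 radial glia and 5 of 8 interneuron markers above the floor, and 1 cell had 5 of 5 microglia markers. Whether cells of different kinds were captured together was not tested.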

How the results depend on the processing

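Called genes were counted under 81 alternatives, and 46 counts stayed within 1.5 times that reported. Of radial glia-like cells against excitatory ones (0 called), the count was 55 with 6 of 8 markers, 135 with gates at 10 TPM, 14 with the log2 of mean TPM, 377 without Neurod6-rich cells, and 0 to 52 with a left-out pool (52 without pool 2 of radial glia-like cells). Against Eomes-positive cells (3), it was 0 with 4 of 8 markers, with the floor set to 0, with the log2 of mean TPM, without the gene filter, with suffix A alone and with cells of at least 3500 genes. There it was 14 with 6 of 8 markers, 28 with gates at 10 TPM, 65 without Neurod6-rich cells, 5 with quantile normalization, and 0 to 0 with a left-out pool. Between Eomes-positive and excitatory neuron-like cells (0) it was 5 with the log2 of mean TPM. Between the kinds of neuron (65), it was 39 with 4 of 8 radial glia markers, 43 with the log2 of mean TPM, 0 in the fit without Neurod6-rich cells, 16 with suffix A, 24 with cells of at least 3500 genes, and 0 to 159 with a left-out pool (159 and 99 without interneuron-like pools 1 and 2, and 0 without either excitatory pool). For cycling progenitors (0), it was 183 with gates at 10 TPM, 31 with the log2 of mean TPM, 1.0e+02 (81 higher and 20 lower) without Neurod6-rich cells, and 0 to 643 with a left-out pool (643 without cycling pool 2, 27 without cycling pool 1). The cause of these shifts was not tested.

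With the pool as a replicate block, the calls against Eomes-positive cells went to 0, those between the kinds of neuron were 63, and the other 3 counts stayed 0. With the floor set to 0, the split between the kinds of neuron was 37 higher and 41 lower, against 38 and 27 reported, and the median of all genes moved to -0.20 from -0.07. Quantile normalization moved that median to 0.04. Of 648 enzyme differences under alternatives, 620 kept their sign. Enzymes were tested only between the kinds of neuron and with cycling, where 7 gained a call, for Cdo1 between the kinds of neuron and for Phgdh, Psat1 and Shmt1 with cycling. The settings with 3500 genes and with radial glia-like cells alone were chosen after seeing the data. A profile left without its fellow pool was assumed to vary like the others. The calls of Cdo1 and Shmt1 came only from such fits. Unknown depth limits every statement on absence.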
